A study of Mus musculus with 9 samples.

Results

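The 9 genes described here make, carry, bind and break down retinoic acid: Aldh1a1, Aldh1a2, Aldh1a3, Rbp4, Crabp1, Crabp2, Stra6, Dhrs3 and Cyp26b1. They were chosen by name for their roles in the pathway, with earlier results of these data known. The deposited count tables held 23420 genes, and all 9 chosen genes passed the filter on low counts that left 15635 for testing. RNA sequencing covered sorted mesenchymal cells of thymus, bone and skin from C57BL/6 mice that were 3 to 4 weeks old, with 3 libraries a tissue. The thymus libraries are labelled 2, 3 and 1-3, and the labels do not say what the last name means. The bone cells came from pelvis, femur and tibia, and their preparation added crushing and lysis of red cells. The skin cells came from the dermis of back and abdomen, with a digestion not given in the sources used here. All 3 groups shared the strain, the age and the sorting gate, and no group carried a transgene or a treatment by the labels. The gate kept cells positive for SCA1, a surface protein of many stromal progenitors, and negative for CD31, EpCAM, CD41, TER119, B220, GR-1, CD11b, CD4, CD2 and CD45, which mark blood, epithelial and endothelial cells. At least 25000 cells went into each sample.

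Retinoic acid is the active form of vitamin A and is made inside cells from retinol, first by a reversible oxidation to retinaldehyde and then by an irreversible oxidation to the acid. Retinoic acid enters the nucleus and binds receptors of the RAR family, which pair with RXR receptors on repeats of a short DNA half-site and switch on target genes. Enzymes of the CYP26 family break it down, so tissues hold local levels set by synthesis on one side and breakdown on the other, and mesenchymal cells are a known source of retinoic acid in many organs.

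Several genes that break down or restrain retinoic acid are themselves known targets of its receptors. The mouse promoters of 3 such genes are printed to show what a receptor-binding repeat looks like and how the promoters of 2 members read beside it. The sequences are from RefSeq on GRCm38.p6, 5′ to 3′ along the gene's strand, and stop before the first transcribed base. Capitals mark a direct repeat of 2 half-sites spaced by 5 bases. The half-sites searched, on both strands, were AGGTCA, its variant AGTTCA, the form GGGTCA and also the form GGTTCA. Cyp26a1, a breakdown enzyme that is no member here, lies at chr19:37697558-37697797 on the plus strand, and its repeat reads on the opposite strand. Cyp26b1 lies at chr6:84593909-84594060 on the minus strand, and Dhrs3 at chr4:144892577-144892826 on the plus strand.
Cyp26a1: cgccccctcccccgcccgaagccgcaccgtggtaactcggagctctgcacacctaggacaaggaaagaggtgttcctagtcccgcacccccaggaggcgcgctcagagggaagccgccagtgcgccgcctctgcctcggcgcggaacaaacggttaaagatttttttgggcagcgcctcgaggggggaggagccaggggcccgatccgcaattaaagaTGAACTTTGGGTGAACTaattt
Cyp26b1: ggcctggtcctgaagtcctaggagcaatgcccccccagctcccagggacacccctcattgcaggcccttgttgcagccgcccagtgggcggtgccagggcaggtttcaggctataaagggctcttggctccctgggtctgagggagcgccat
Dhrs3: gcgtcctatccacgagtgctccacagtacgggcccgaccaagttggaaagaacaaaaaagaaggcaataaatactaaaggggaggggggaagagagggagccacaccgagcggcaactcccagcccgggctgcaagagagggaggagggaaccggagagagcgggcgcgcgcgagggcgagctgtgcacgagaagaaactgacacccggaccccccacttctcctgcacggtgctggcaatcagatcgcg
The repeat of Rarb, the gene of retinoic acid receptor beta, lies at chr14:16575513-16575529 on the minus strand, 53 to 37 bases before the start, and is printed alone.
Rarb: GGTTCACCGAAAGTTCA
A repeat spaced by 5 bases was found in 0.0974% of 32851 promoter windows of 300 bases, a repeat spaced by 2 bases in 0.268%, one spaced by 1 base in 0.222%, and the single half-site AGGTCA in 16.3%. Of the 9 members, 7 had a window in the table, and none of their 14 windows held a repeat or the half-site AGGTCA. This says only that these letters are not in these windows.

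Gene reads per library ran between 92394043 and 104101456 in thymus, 78757872 and 95113387 in bone, and 97414733 and 116759235 in skin. Profiles of libraries of the same tissue correlated at r = 0.921 to 0.972 across genes, and those of different tissues at 0.792 to 0.878, which describes these libraries. All 9 fibroblast markers, among them Pdgfra and Col1a1, were at 1 CPM (each gene's share of the library's gene reads on the usual CPM scale, adjusted by TMM factors) or more in every tissue, as the mesenchymal label says. Other cells were represented too. The sum of 8 myeloid markers was 20.7 to 84.5 CPM in thymus, 2433 to 3319 CPM in bone and 40.9 to 97.0 CPM in skin, although CD45, CD11b and GR-1 were in the gate. In thymus and in bone 8 of 8 were at 1 CPM or more, and in skin 5 of 8. S100a8, S100a9 and Ngp, with means of 736, 849 and 825 CPM in bone, made up most of the bone sum. Csf1r was the exception among the 8, with means of 24.4 CPM in bone and 24.7 CPM in skin. No label ties the libraries to separate animals, so p-values here reflect only how far these samples spread, and that spread may be technical. In bulk samples, fewer cells of a type and less RNA per cell cannot be told apart. If thymus 1-3 is a pool, it shares material with the other thymus libraries.

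The tissues differed in which retinaldehyde dehydrogenase they expressed. Aldh1a1, Aldh1a2 and Aldh1a3 encode the 3 enzymes that carry out the irreversible step to retinoic acid. Thymus cells carried mainly Aldh1a1 and Aldh1a3 transcripts with some Aldh1a2, bone cells carried Aldh1a3 and Aldh1a2, and skin cells carried Aldh1a3 and Aldh1a1 with almost no Aldh1a2.

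Aldh1a1 (chr19:20601982-20643462, mm10) had 42.9, 42.9 and 34.8 CPM in thymus 2, 3 and 1-3, 9.68, 5.91 and 8.87 CPM in bone 1, 2 and 3, and 71.2, 78.0 and 105 CPM in skin 1, 2 and 3. Skin was highest and bone lowest, and no library of any tissue overlapped those of another. The level was 2.30 ± 0.21 log2 units higher in thymus than in bone (SE; edgeR's quasi-likelihood test, Benjamini-Hochberg adjusted p = 8.68e-06), and its log2 fold change against skin was -1.08 ± 0.20 (adjusted p = 0.00136). Bone was 10.4-fold lower than skin, with a log2 fold change of -3.38 ± 0.22 (adjusted p = 5.85e-07). The thymus to skin difference was not called when libraries were scaled by size alone, where the log2 fold change was -0.44 (adjusted p = 0.0828). Aldh1a7, a close copy of Aldh1a1 looked at after values were seen, had 8 reads in all thymus libraries, 5 in bone and 28 in skin, and how reads matching both copies were counted is not known here.

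Aldh1a2 (chr9:71215789-71296243) is the enzyme of the early embryo's mesoderm and of mesothelium. It had 17.0, 27.6 and 15.8 CPM in thymus 2, 3 and 1-3, 78.2, 57.0 and 59.0 CPM in bone 1, 2 and 3, and 1.63, 1.79 and 1.00 CPM in skin 1, 2 and 3. Each tissue had its own range with no overlap. Thymus was lower than bone by a log2 fold change of -1.69 ± 0.26 (adjusted p = 0.000393) and 13.7-fold higher than skin (log2 fold change 3.77 ± 0.29, adjusted p = 1.8e-06). Bone was 44.0-fold higher than skin, with a log2 fold change of 5.46 ± 0.31 (adjusted p = 2.66e-07), the largest difference of the 3 synthesis enzymes in any comparison.

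Markers of mesothelium, a cell layer known to express Aldh1a2, were read beside it. Their sum over 7 genes was 30.9, 137 and 55.7 CPM in thymus 2, 3 and 1-3, 1.51 to 4.08 CPM in bone and 7.47 to 12.4 CPM in skin. All 7 were at 1 CPM or more in thymus, 1 of 7 in bone and 3 of 7 in skin. Among thymus libraries, thymus 3 was highest for both the marker sum and Aldh1a2, while thymus 1-3 had a higher sum than thymus 2 and a lower Aldh1a2 level. The part of mesothelial cells in the thymus level was not tested. Without thymus 3, Aldh1a2 was still higher in thymus than in skin, with a log2 fold change of 3.48 (adjusted p = 2.58e-06), and the remaining thymus libraries still held mesothelium markers. In bone, where Aldh1a2 was highest, the reads over 3 libraries were 568 for Msln, 178 for Krt19, 75 for Lrrn4, 8 for Upk1b, 2 each for Wt1 and Upk3b and 0 for Bnc1. In skin, Upk1b and Lrrn4 had 0 reads, while Krt19 averaged 6.94 CPM in thymus and 6.65 CPM in skin, and Bnc1 1.45 CPM in thymus and 1.23 CPM in skin.

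**Figure D1:**
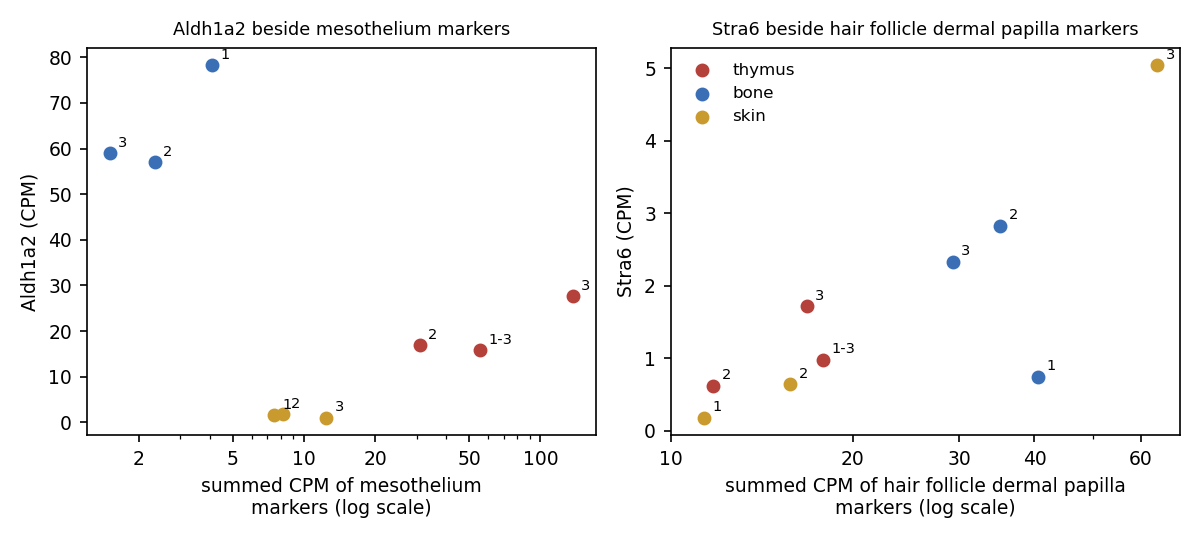
Level of a gene (CPM, y axis, linear) against the summed level of a marker list (CPM, x axis, log scale) in each library, with thymus in red, bone in blue and skin in yellow and the library's name beside its point. The left panel shows Aldh1a2 highest in bone, where mesothelium markers sum to 1.51 to 4.08 CPM. The right panel shows skin 3 highest for both Stra6 and the sum of the dermal papilla markers. Both panels were chosen after the values were seen.

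Aldh1a3 (chr7:66390893-66427477) had 43.0, 73.2 and 64.8 CPM in thymus 2, 3 and 1-3, 322, 182 and 170.3 CPM in bone 1, 2 and 3, and 117, 146 and 197 CPM in skin 1, 2 and 3. Every thymus library was below every bone and skin library, while bone and skin overlapped. Thymus was lower than bone by a log2 fold change of -1.90 ± 0.30 (adjusted p = 0.000741) and lower than skin by -1.34 ± 0.29 (adjusted p = 0.00453). Between bone and skin the log2 fold change was 0.55 ± 0.29 and did not pass the test (adjusted p = 0.143).

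The make-up of the 3 enzymes within a library does not depend on scaling between libraries, and was taken from RPKM, which corrects for gene length. Aldh1a1 made up 43.0 ± 6.98% of the summed RPKM in thymus, 4.14 ± 1.10% in bone and 47.5 ± 1.68% in skin (SD, n = 3 each). Aldh1a2 made up 18.6 ± 3.24% in thymus, 29.7 ± 3.43% in bone and 0.804 ± 0.358% in skin. Aldh1a3 made up the rest, 38.4 ± 7.0% in thymus, 66.2 ± 4.21% in bone and 51.7 ± 1.89% in skin. Shares of Aldh1a2 and of Aldh1a3 did not overlap between any pair of tissues, each with a two-sided exact permutation p of 0.1, the smallest that 3 against 3 libraries can give. The Aldh1a1 share overlapped between thymus and skin, with an exact permutation p of 0.4.

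**Figure D2:**
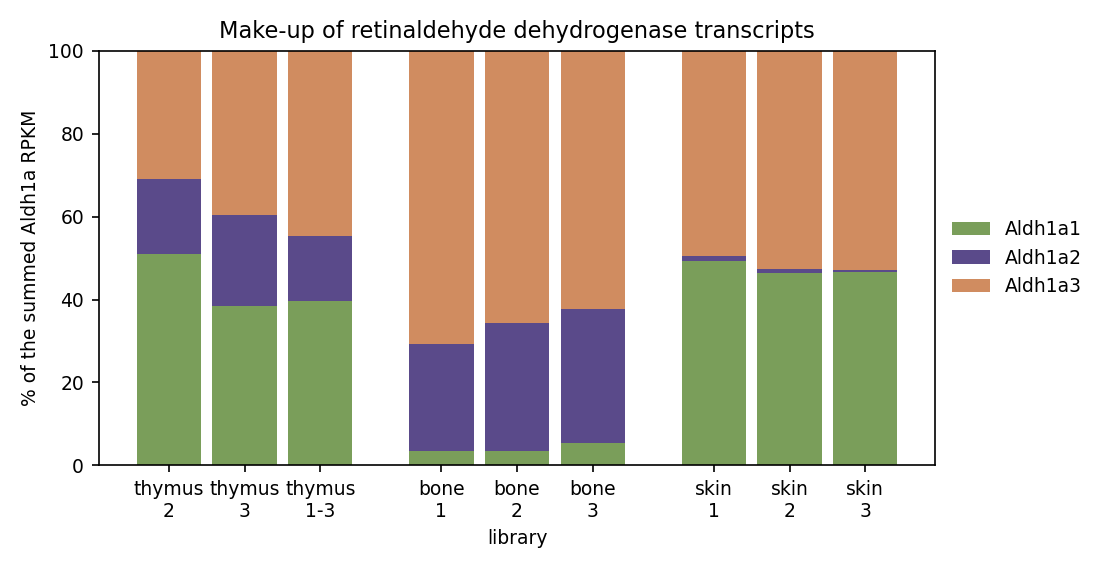
Stacked bars show, for each library (x axis), the percent of the summed RPKM of Aldh1a1, Aldh1a2 and Aldh1a3 that each gene makes up (y axis, 0 to 100%). The Aldh1a2 band spans 15.7 to 22.1% in the thymus bars, 25.8 to 32.2% in the bone bars and 0.393 to 1.05% in the skin bars.

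Of the genes that limit retinoic acid, Cyp26b1 encodes a cytochrome that oxidises it for removal, and Dhrs3 a reductase that turns retinaldehyde back into retinol. Cyp26b1 was lower in thymus than in bone and skin. Cyp26b1 differed by more than 10-fold between thymus and bone, while Dhrs3 differed less and varied within skin.

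Cyp26b1 (chr6:84571414-84593908) had 1.17, 2.74 and 1.25 CPM in thymus 2, 3 and 1-3, 27.1, 25.4 and 39.8 CPM in bone 1, 2 and 3, and 6.71, 17.8 and 20.2 CPM in skin 1, 2 and 3. Thymus was lowest and bone highest, with no overlap between tissues. Thymus was 17.8-fold lower than bone (log2 fold change -4.16 ± 0.49, adjusted p = 0.000134) and lower than skin by a log2 fold change of -3.11 ± 0.47 (adjusted p = 0.000557). The difference of bone from skin, 1.04 ± 0.43 log2 units, did not pass the test (adjusted p = 0.0727), although the bone and skin libraries did not overlap; it passed with DESeq2 (adjusted p = 0.0278).

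Dhrs3 (chr4:144892827-144927645) had 13.2, 20.3 and 21.6 CPM in thymus 2, 3 and 1-3, 31.9, 26.3 and 21.8 CPM in bone 1, 2 and 3, and 25.1, 31.3 and 71.3 CPM in skin 1, 2 and 3. The third skin library stood above the rest, and bone and skin overlapped. Thymus was lower than skin by a log2 fold change of -1.21 ± 0.37 (adjusted p = 0.0266), and without skin 3 that value was -0.62 (adjusted p = 0.0617). The call was also lost without thymus 2 (adjusted p = 0.0915) or thymus 3 (adjusted p = 0.0598). The log2 fold change of thymus against bone, -0.54 ± 0.37, did not pass (adjusted p = 0.294), nor did that of bone against skin, -0.67 ± 0.37 (adjusted p = 0.159), which was 0.01 when scaled by library size only.

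Within each library, the summed RPKM of the 3 synthesis enzymes was set against that of Cyp26b1. The ratio was 146 ± 42.6 in thymus, 16.4 ± 7.14 in bone and 32.8 ± 15.3 in skin (SD, n = 3 each). Thymus, at 96.8 to 172, did not overlap bone, at 9.78 to 24.0, or skin, at 22.1 to 50.3, each with an exact permutation p of 0.1. Bone and skin overlapped (exact permutation p = 0.2). The ratio of Dhrs3 to Rdh10, the enzyme that oxidises retinol in the opposite direction, was 0.445 ± 0.173 in thymus, 1.85 ± 0.443 in bone and 2.95 ± 1.18 in skin. Thymus lay below 1 in every library, at 0.256 to 0.595, and bone and skin above 1. These are ratios of transcripts, and enzyme activity was not measured.

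Rbp4 encodes the protein that carries retinol in blood, and Stra6 the membrane receptor that takes retinol from it. Rbp4 (chr19:38116620-38125321) had 0.453, 1.21 and 0.745 CPM in thymus 2, 3 and 1-3, 7.13, 10.8 and 9.12 CPM in bone 1, 2 and 3, and 6.76, 7.87 and 7.97 CPM in skin 1, 2 and 3. Thymus was below both other tissues in every library, and bone and skin overlapped. The log2 fold change was -3.49 ± 0.38 against bone (adjusted p = 3.26e-05) and -3.23 ± 0.38 against skin (adjusted p = 4.35e-05). For bone against skin it was 0.26 ± 0.35 (adjusted p = 0.565).

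Stra6 (chr9:58129088-58153997) was low throughout, at 0.621, 1.72 and 0.980 CPM in thymus 2, 3 and 1-3, 0.747, 2.83 and 2.33 CPM in bone 1, 2 and 3, and 0.180, 0.645 and 5.04 CPM in skin 1, 2 and 3. All 3 tissues overlapped, since the lowest library of all and the highest were both skin. No comparison passed, with log2 fold changes of -0.83 ± 1.01 for thymus against bone, -0.82 ± 1.01 for thymus against skin and 0.01 ± 1.00 for bone against skin (adjusted p = 0.575, 0.565 and 0.996). Without skin 3 the thymus to skin value turned to 1.43 (adjusted p = 0.28), so 1 library set its sign. Skin 3 also stood apart in markers of the hair follicle dermal papilla, whose sum over 5 genes was 11.8 to 17.9 CPM in thymus, 29.3 to 40.5 CPM in bone, and 11.3, 15.8 and 63.8 CPM in skin 1, 2 and 3. Sox2 had 0 reads in thymus and bone, and Corin had 0 reads in thymus. In skin 1, 2 and 3, Corin had 0.652, 2.81 and 43.3 CPM, and it made up most of the skin 3 sum. Alx4 had 4.81, 6.08 and 11.7 CPM in those libraries, and Prom1 0.0675, 0.176 and 0.173 CPM. Prom1 and Rspo3 had their highest means in bone, at 15.8 and 13.5 CPM, and Rspo3 averaged 6.86 CPM in skin. Skin 3 was highest in other lists as well. Keratinocyte markers summed to 53.6, 59.1 and 133 CPM in skin 1, 2 and 3, and 5 thymic epithelium markers to 3.49, 3.77 and 25.7 CPM. Cldn4, at 21.8 CPM, made up most of the latter sum in skin 3, and Aire had 0 reads in skin. The 6 markers of pericytes and smooth muscle summed to 52.3, 76.3 and 113 CPM in skin 1, 2 and 3. Acta2, at 14.9, 28.4 and 81.6 CPM in those libraries, made up most of the skin 3 sum. It was the only marker of that list to be highest in skin 3. Cspg4, Des and Rgs5 were lowest there, at 10.4, 9.05 and 0.450 CPM, and Myh11 and Notch3 were highest in skin 2. The part of any of these cells in the Stra6 and Dhrs3 levels of skin 3 was not tested.

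Crabp1 and Crabp2 encode small proteins that bind retinoic acid inside the cell. CRABP2 is known to hand it to its nuclear receptor, and CRABP1 to hold it in the cytoplasm. Crabp2 transcripts were abundant in bone cells and near absent in thymus and skin cells, and Crabp1 was low in all 3 tissues.

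Crabp2 (chr3:87948693-87953372) had 0.369, 0.234 and 0.441 CPM in thymus 2, 3 and 1-3, 38.7, 35.4 and 57.4 CPM in bone 1, 2 and 3, and 0.989, 0.674 and 0.704 CPM in skin 1, 2 and 3. The reads behind these levels were 117 in thymus, 13432 in bone and 195 in skin, each over 3 libraries. Thymus was 126-fold lower than bone (log2 fold change -6.98 ± 0.33, adjusted p = 7.64e-08), and bone 55.3-fold higher than skin (5.79 ± 0.31, adjusted p = 1.83e-07). Thymus was lower than skin by a log2 fold change of -1.19 ± 0.29 (adjusted p = 0.00738), a call lost when only these 2 tissues entered the fit (adjusted p = 0.243). The myeloid marker sum was also highest in bone, at 2863, 2433 and 3319 CPM in bone 1, 2 and 3, and the part of such cells in the Crabp2 level was not tested. None of the 8 myeloid markers was at 0 reads in bone. Cartilage and bone cell markers were highest there too. The 6 chondrocyte markers summed to 12.6 to 21.0 CPM in thymus, 1481 to 1649 CPM in bone and 10.9 to 14.2 CPM in skin. Comp, with a mean of 1102 CPM in bone, made up most of the bone sum, while Matn3 averaged 1.84 CPM there. The 4 osteoblast markers summed to 3.76 to 5.64 CPM in thymus, 121 to 386 CPM in bone and 4.91 to 8.53 CPM in skin. The part of those cells in the Crabp2, Cyp26b1 and Aldh1a2 levels of bone was not tested.

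Crabp1 (chr9:54764808-54773109) had 0.596, 0.636 and 2.12 CPM in thymus 2, 3 and 1-3, 0.388, 0.324 and 0.521 CPM in bone 1, 2 and 3, and 1.98, 2.93 and 2.55 CPM in skin 1, 2 and 3. Bone was lowest, and thymus 1-3 reached into the skin range. Bone was lower than skin by a log2 fold change of -2.59 ± 0.73 (adjusted p = 0.0118). Neither thymus against bone (1.44 ± 0.70, adjusted p = 0.141) nor thymus against skin (-1.16 ± 0.69, adjusted p = 0.218) passed, and the thymus mean of 1.12 CPM was 0.616 CPM without thymus 1-3. Within a library, Crabp2 made up 22.5 ± 7.72% of the summed RPKM of the pair in thymus, 98.9 ± 0.0784% in bone and 21.0 ± 7.05% in skin. Between thymus and skin the shares overlapped (exact permutation p = 0.9), and bone was above both in every library.

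**Figure D3:**
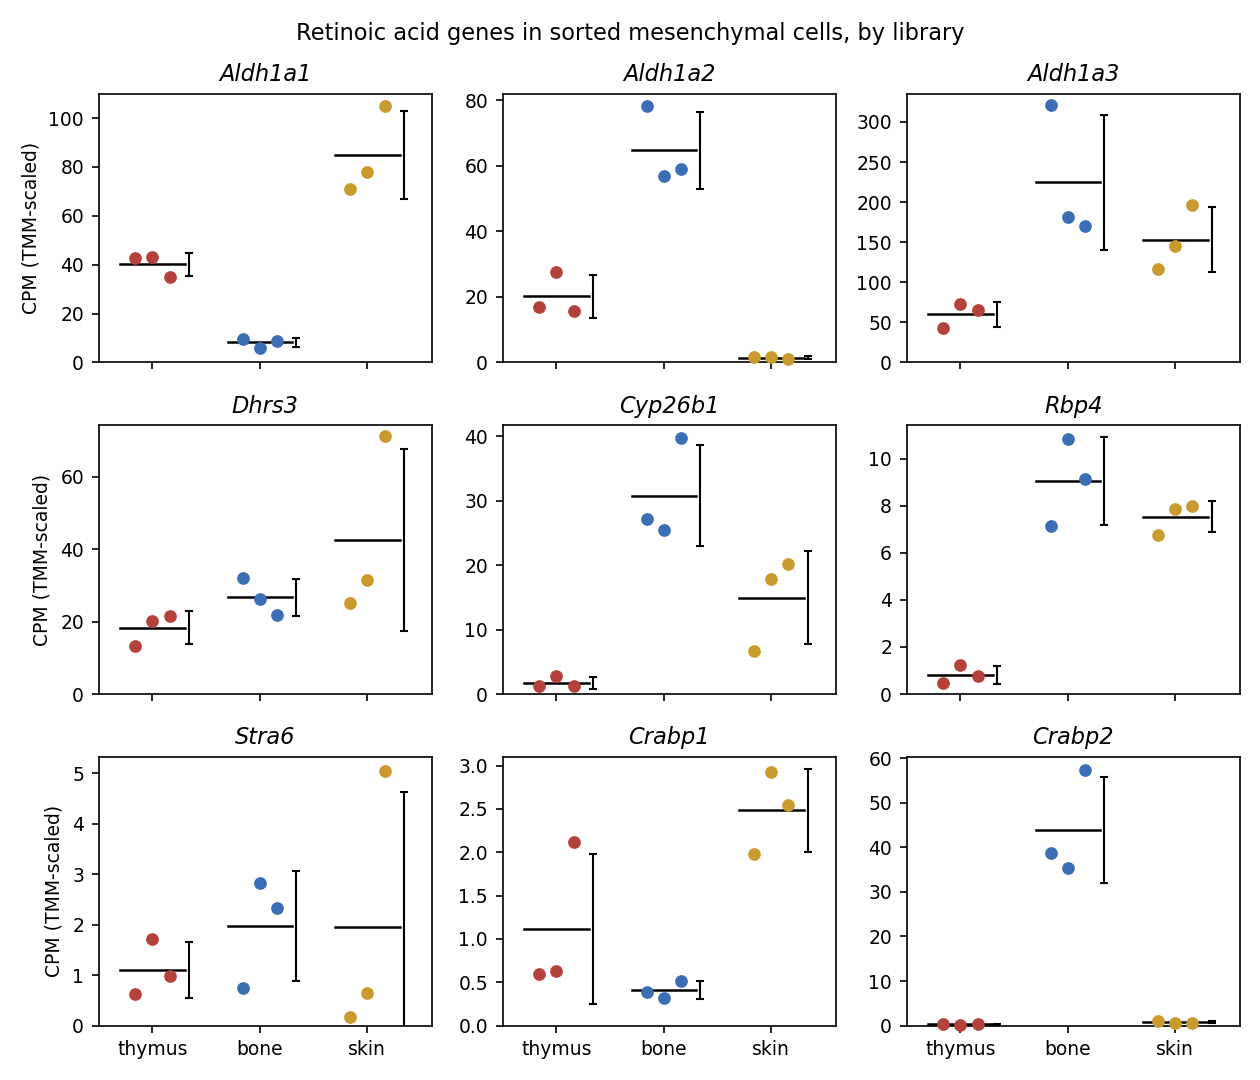
Level of each of the 9 genes (CPM scaled by TMM factors, y axis, linear and of its own range per panel) in each library of thymus, bone and skin, with 1 point per library in the order of the labels. The horizontal line is the mean and the bar beside it 1 SD each way (n = 3), cut off at 0 where it would pass below; Crabp2 is 35.4 CPM or more in every bone library and under 1 CPM elsewhere, and skin 3 lies apart in the Stra6 and Dhrs3 panels.

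Compared per length, as RPKM, the order of the 9 genes differed between tissues. In thymus Aldh1a1, at 17.2 to 22.1 RPKM, and Aldh1a3, at 12.8 to 22.8 RPKM, led and overlapped, followed by Dhrs3 (7.86 to 12.7 RPKM) and Aldh1a2 (6.83 to 12.8 RPKM), which overlapped as well. The other 5 genes stayed under 3 RPKM in every thymus library. In bone Aldh1a3 (50.6 to 93.8 RPKM) and Crabp2 (40.7 to 64.3 RPKM) led and overlapped, above Aldh1a2 (26.2 to 34.2 RPKM) and Dhrs3 (13.4 to 17.8 RPKM), which did not overlap. In skin Aldh1a3 (25.0 to 40.9 RPKM), Aldh1a1 (24.9 to 36.0 RPKM) and Dhrs3 (10.6 to 28.6 RPKM) led and overlapped, Rbp4 followed at 3.74 to 4.27 RPKM, and Aldh1a2, Crabp2 and Stra6 stayed under 1 RPKM.

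Counted together, thymus against bone gave 1 member higher and 5 lower, where 32.6% of all tested genes passed, 16.5% higher and 16.1% lower. The higher gene was Aldh1a1, and the lower genes were Aldh1a2, Aldh1a3, Rbp4, Crabp2 and Cyp26b1. Thymus against skin gave 1 higher, Aldh1a2, and 6 lower, Aldh1a1, Aldh1a3, Rbp4, Crabp2, Dhrs3 and Cyp26b1, where 37.6% of all tested genes passed, 19.3% higher and 18.3% lower. Bone against skin gave 2 higher, Aldh1a2 and Crabp2, and 2 lower, Aldh1a1 and Crabp1, where 47.1% of all tested genes passed, 23.7% higher and 23.4% lower. The last count, 4 of 9, is near its background. The libraries did not overlap for 8 of 9 members in thymus against bone, 7 of 9 in thymus against skin and 5 of 9 in bone against skin, beside 49.4%, 51.9% and 58.3% of all tested genes. The median log2 fold change of the 9 genes was -1.69, -1.19 and 0.26 in these 3 comparisons, beside 0.02, 0.03 and 0.03 for all tested genes. The comparisons share libraries and are not independent of each other.

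**Figure D4:**
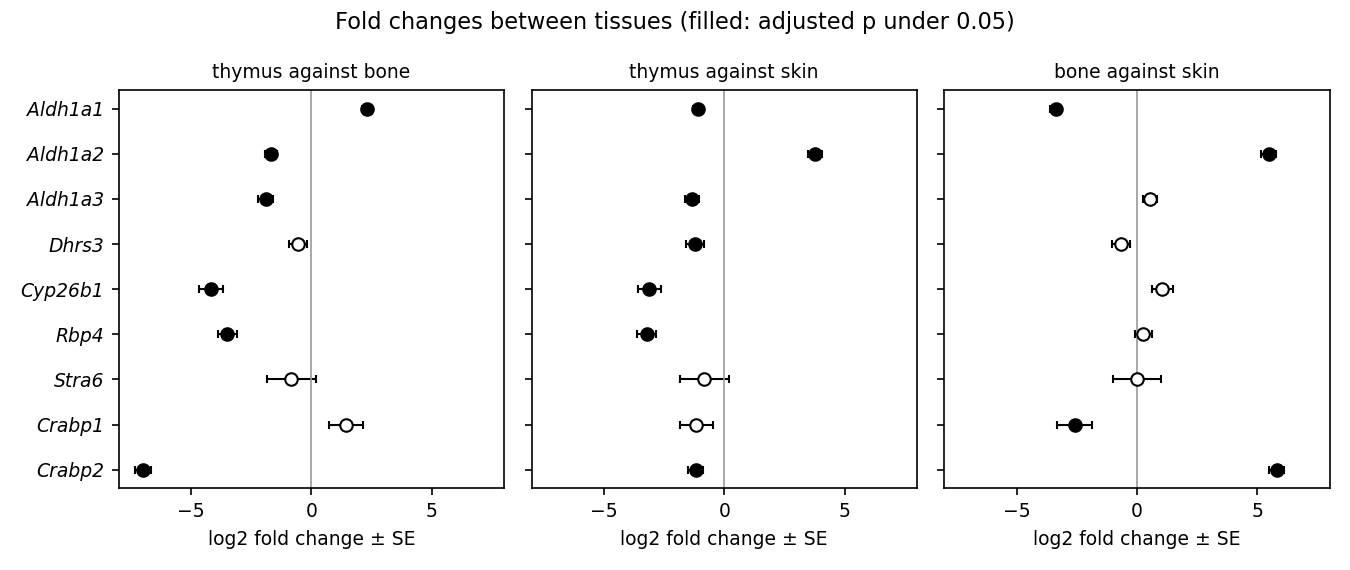
Log2 fold change with its SE (x axis, the first-named tissue over the second) of each gene (y axis) in 3 panels, thymus against bone, thymus against skin and bone against skin. Filled circles passed at an adjusted p under 0.05, with 6, 7 and 4 filled circles in the panels; in the first panel Aldh1a1 alone lies right of 0 among them.

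The counts against skin depend on scaling. TMM factors lay between 1.10 and 1.18 for thymus, between 1.16 and 1.23 for bone and between 0.701 and 0.770 for skin. Scaled by library size only, 3 of 9 members passed for thymus against skin and 7 of 9 for bone against skin. The split of all genes, 3013 higher and 2865 lower for thymus against skin, became 7219 and 1239, and that of bone against skin, 3702 and 3661, became 7474 and 1391. The median over all genes became 0.66 and 0.72 log2 units in those comparisons. Aldh1a2, Rbp4 and Cyp26b1 kept their call for thymus against skin in all 20 alternatives, Aldh1a1 in 17, Aldh1a3 in 18, Crabp2 in 15 and Dhrs3 in 13 of them.

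A further 49 genes of retinoid metabolism, transport and response were read in the same fit, of which 35 passed the filter. In thymus against bone, 12 were higher and 6 lower, in thymus against skin 10 and 7, and in bone against skin 5 and 14. Among all tested genes, 32.6%, 37.6% and 47.1% passed in either direction. The shares higher and lower were 16.5% and 16.1%, then 19.3% and 18.3%, then 23.7% and 23.4%. Rdh10, the main retinol dehydrogenase of the embryo, had 47.0 to 68.7 CPM in thymus, 17.6 to 21.9 CPM in bone and 13.2 to 21.6 CPM in skin. It was higher in thymus than in bone by 1.55 ± 0.21 log2 units (adjusted p = 0.00014) and than in skin by 1.64 ± 0.21 (adjusted p = 7.6e-05). The summed level of 6 markers of pericytes and smooth muscle was also highest in thymus, at 894 to 1220 CPM there, 386 to 396 CPM in bone and 52.3 to 113 CPM in skin, and their part in the Rdh10 level was not tested. Des, with a mean of 691 CPM in thymus, made up most of that sum, and Rgs5 and Cspg4 had a higher mean in bone than in thymus.

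Other retinol-oxidising enzymes had different tissues at their peak. Adh1 averaged 59.5 ± 3.86 CPM in thymus, 4.29 ± 2.79 CPM in bone and 53.0 ± 20.8 CPM in skin, and bone was lower than skin by a log2 fold change of -3.62 ± 0.45 (adjusted p = 0.000133). Adh7 averaged 0.970 ± 0.695 CPM in thymus, 4.24 ± 1.28 CPM in bone and 34.3 ± 3.03 CPM in skin, and Dhrs9 0.763 ± 0.583, 8.18 ± 1.35 and 29.99 ± 8.32 CPM in the same order. Both were lower in thymus than in skin by more than 5 log2 units, at -5.14 ± 0.58 for Adh7 (adjusted p = 8.35e-05) and -5.29 ± 0.58 for Dhrs9 (adjusted p = 6.84e-05). The summed level of 7 keratinocyte markers was also highest in skin, at 23.1 to 28.6 CPM in thymus, 2.70 to 4.57 CPM in bone and 53.6 to 133 CPM in skin, and their part in these levels was not tested. Trp63 was the exception among the 7, with means of 11.9 CPM in thymus, 0.534 CPM in bone and 5.83 CPM in skin. Rdh12 averaged 0.808 ± 0.716 CPM in thymus, 4.45 ± 0.425 CPM in bone and 0.979 ± 0.440 CPM in skin.

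Of the genes that cleave carotenoids or store and release retinyl esters, Bco2 averaged 1.02 ± 0.529 CPM in thymus, 0.667 ± 0.578 CPM in bone and 9.40 ± 3.04 CPM in skin. Bcmo1, which splits beta-carotene into retinaldehyde, had a log2 fold change of -5.95 ± 1.54 for bone against skin (adjusted p = 0.00739). That value rests on 8 reads in bone, all of them in bone 2. Bcmo1 averaged 0.379 ± 0.172 CPM in thymus, 0.0227 ± 0.0394 CPM in bone and 1.53 ± 0.321 CPM in skin. Lpl, a lipase that also acts on retinyl esters, was higher in thymus than in bone by 2.15 ± 0.19 log2 units (adjusted p = 6.74e-06), with means of 1203 and 271 CPM. Dgat1, an enzyme that can esterify retinol, averaged 10.6 ± 3.38 CPM in thymus, 28.4 ± 2.77 CPM in bone and 9.91 ± 1.90 CPM in skin, and Lipe 6.17 ± 0.612, 7.72 ± 0.578 and 11.0 ± 1.51 CPM.

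Of the other carriers, Lrp2 had its highest mean in thymus and Fabp5 in skin. Lrp2, an endocytic receptor that takes up RBP4, had 1.60, 6.04 and 3.34 CPM in thymus 2, 3 and 1-3 and 0 reads in every bone and skin library. With a floor of 3 reads over a group, it was at least 381-fold higher in thymus than in bone and at least 298-fold higher than in skin. Its highest library was thymus 3, which among thymus libraries was also highest in the mesothelium, myeloid and lymphocyte marker sums, at 137, 84.5 and 92.9 CPM. Thymus 3 also led in the thymic epithelium, dendritic cell and adipocyte sums, at 6.17, 34.9 and 13.0 CPM. The keratinocyte, endothelium and pericyte sums were highest in thymus 1-3. Of the myeloid markers, Itgam, Cd68 and Ngp were highest in thymus 1-3 as well. The part of any of these cells in the Lrp2 level was not tested. Fabp5, which can also carry retinoic acid, averaged 6.75 ± 2.61 CPM in thymus, 4.57 ± 1.11 CPM in bone and 14.3 ± 5.83 CPM in skin. The other 2 breakdown enzymes were below the filter, Cyp26c1 with 0 reads and Cyp26a1 with reads in bone alone, at 0, 1.03 and 0.239 CPM in bone 1, 2 and 3.

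All 6 nuclear receptors of retinoids were measured. Rarb, whose promoter repeat is printed above, had 23.4, 26.9 and 16.6 CPM in thymus 2, 3 and 1-3, 12.4, 10.4 and 8.27 CPM in bone 1, 2 and 3, and 8.64, 7.42 and 11.3 CPM in skin 1, 2 and 3. Thymus was above both other tissues in every library, by 1.11 ± 0.24 log2 units over bone (adjusted p = 0.00431) and 1.29 ± 0.24 over skin (adjusted p = 0.00136). Rarg had the opposite order, with means of 86.6 ± 14.6 CPM in thymus, 173 ± 15.5 CPM in bone and 250.2 ± 36.6 CPM in skin. It was lower in thymus by a log2 fold change of -0.996 ± 0.16 against bone (adjusted p = 0.000485) and -1.53 ± 0.16 against skin (adjusted p = 1.73e-05). Rxrg, at 2.18 ± 0.159 CPM in thymus, 1.96 ± 1.05 CPM in bone and 0.242 ± 0.186 CPM in skin, was higher in thymus than in skin (3.17 ± 0.78, adjusted p = 0.00713). Rxra and Rxrb differed by less than 1 log2 unit in every comparison that passed.

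Of 11 genes known to respond to retinoic acid in various cells, 8 were tested. In thymus against bone 5 were higher and 1 lower, and in thymus against skin 4 and 1. In bone against skin 2 were higher and 3 lower. Of all tested genes, 16.5% were higher and 16.1% lower in the first comparison, 19.3% and 18.3% in the next, and 23.7% and 23.4% in the last. Tgm2, a transglutaminase, averaged 407 ± 30.1 CPM in thymus, 196 ± 26.5 CPM in bone and 180 ± 30.5 CPM in skin, and was higher in thymus than in bone by 1.06 ± 0.16 log2 units (adjusted p = 0.000327) and than in skin by 1.18 ± 0.16 (adjusted p = 0.000124). Meis1 and Meis2, homeobox factors, averaged 70.7 ± 10.2 and 48.5 ± 17.4 CPM in thymus, 10.8 ± 6.42 and 6.72 ± 4.13 CPM in bone, and 33.3 ± 3.91 and 39.95 ± 3.75 CPM in skin. Rarres2, the gene of chemerin, averaged 177 ± 22.7 CPM in thymus, 40.2 ± 3.37 CPM in bone and 254 ± 80.7 CPM in skin. Rai14 averaged 173 ± 11.9 CPM in thymus, 68.4 ± 4.32 CPM in bone and 47.2 ± 13.7 CPM in skin, and Rarres1 3.88 ± 1.07, 6.15 ± 1.66 and 1.33 ± 0.412 CPM. The gene lower in thymus in both comparisons was Gprc5a, a membrane protein first found as induced by retinoic acid, at 3.58 ± 1.99 CPM in thymus, 94.2 ± 20.9 CPM in bone and 52.1 ± 11.4 CPM in skin. Its log2 fold change was -4.72 ± 0.47 against bone (adjusted p = 4.91e-05) and -3.86 ± 0.45 against skin (adjusted p = 0.000116). The genes whose promoter sequence is printed above, Cyp26a1, Cyp26b1, Dhrs3 and Rarb, were not in this list. Cyp26b1 was lower in thymus than in bone and skin, Dhrs3 passed as lower against skin only, and Cyp26a1 had reads in bone alone. Rarb was higher in thymus than in bone and skin. These genes answer to many signals, and retinoic acid itself was not measured.

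**Figure D5:**
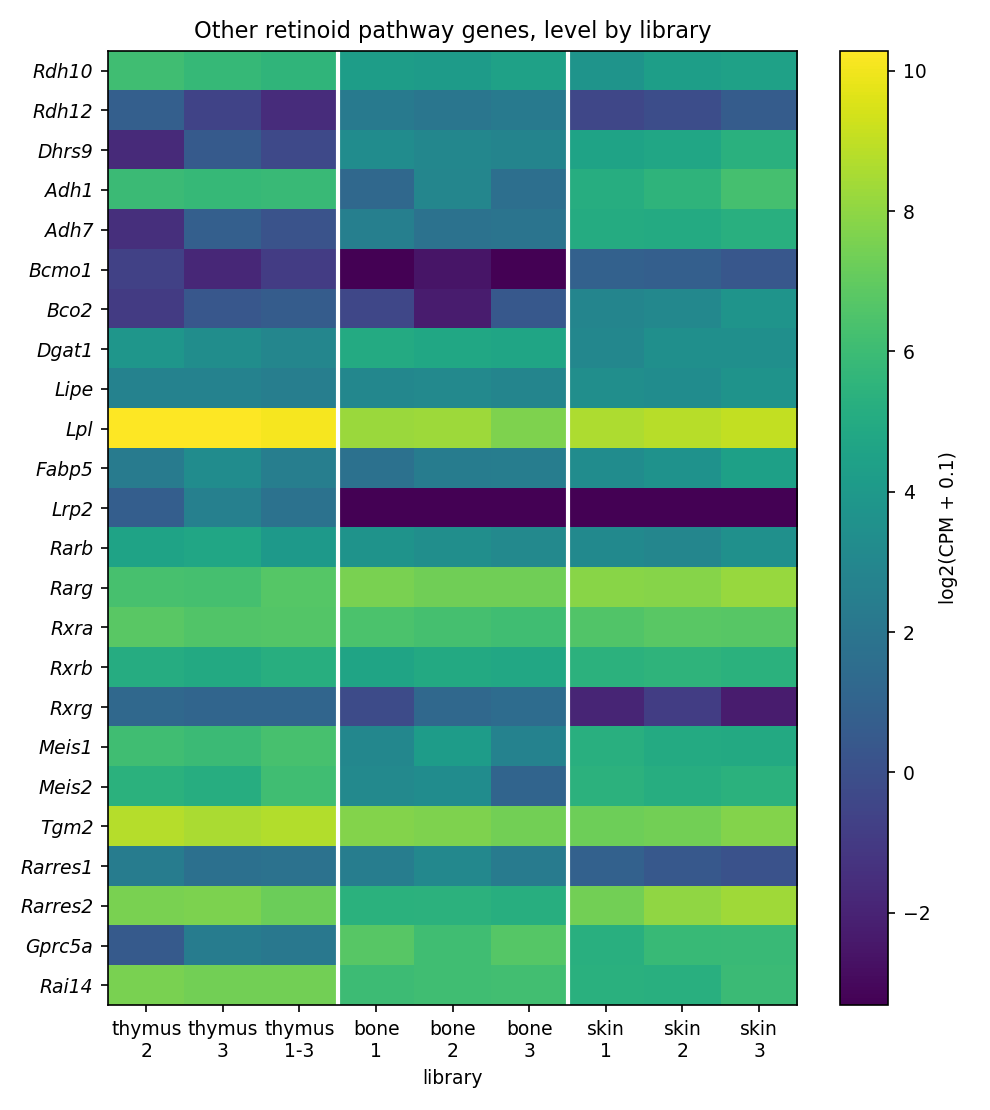
Level of 24 other retinoid genes (rows, ordered by role) in each library (columns, with white lines between thymus, bone and skin), as the colour of log2(CPM + 0.1). Rdh10, Rarb and Tgm2 are brightest in the 3 thymus columns, Dhrs9, Adh7 and Rarg in the 3 skin columns, and Lrp2 has 0 reads in bone and skin.

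For each member, the 3 genes with the most similar profile over the 9 libraries were found among 13139 genes, by the root mean square difference of centred log2 levels. Stra6 was not included because its tissue means differed by less than 2-fold. For Aldh1a1 they were Shb, Mmp23 and Zfpm2, at 0.26, 0.32 and 0.34 log2 units. For Aldh1a2 they were Slamf6, Cd72 and Olfml2a (0.26 to 0.37), for Aldh1a3 Procr, Scara3 and Gdpd5 (0.22 to 0.26), and for Rbp4 Shox2, Adcy2 and Dusp5 (0.20 to 0.26). For Crabp2 they were Rgs18, Clec4e and Clec4d (0.41 to 0.42), of which the last 2 are known as receptors of myeloid cells. Slamf6 and Cd72 are known from lymphocytes, whose 5 markers summed to 33.2 to 92.9 CPM in thymus, 61.6 to 100.4 CPM in bone and 0 to 0.483 CPM in skin, and the part of such cells in the Aldh1a2 level was not tested. Cyp26b1 was most like Vill, Cd24a and Notum (0.32 to 0.49), Crabp1 like Copz2, Rpsa and Vkorc1 (0.23 to 0.26), and Dhrs3 like Arl4d, Rad51b and Samhd1 (0.22 to 0.29).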

How the data were processed

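RNA was sequenced from sorted SCA1+ mesenchymal cells of thymus, bone and skin, 3 libraries a tissue. Per the submitters' processing notes, the tools were CASAVA 1.8.2 and HTSeq 0.5.4 on build mm10, without saying what each was used for. Aligner, annotation and strand handling were not given in the sources used here, and reads of antisense partners cannot be told apart. GENCODE annotation places antisense or pseudogene partners over Aldh1a1, Aldh1a2 and Stra6, none over their exons. The deposited counts are whole reads per gene by the authors, with 5 summary lines that held 5.05 to 14.8% of reads and were left out. The deposited RPKM values, made by the authors per gene and library, were used for ratios within a library, for mm10 coordinates and in alternatives.

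Counts of all 9 libraries entered 1 fit of edgeR 4.0.16 in R 4.3.3, with a mean per tissue, TMM factors and filterByExpr by tissue. Its quasi-likelihood test was adjusted by Benjamini-Hochberg over 15635 genes, with a threshold of 0.05. CPM are scaled by TMM factors, and levels are means ± SD over 3 libraries. Ratios within a library were compared by exact two-sided permutation. Alternatives used RLE or upper quartile factors, library size only, other filters, DESeq2 1.42.0, limma 3.58.1 on log2 RPKM plus 1 or 0.1, only 2 tissues, a replicate block and each library left out. The script was tested on simulated data. Libraries of a tissue differed far beyond sampling noise, so each counted as 1.

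All 9 members are named, and of the other retinoid genes those with a mean of 1 CPM or more in a tissue that passed in a comparison, of which 1 is not reported here; Cyp26a1, Cyp26c1 and Aldh1a7 are named outside that rule, after their values were seen. Genes most alike were ranked on log2(CPM + 0.1) among genes of at least 1 CPM in a tissue, in the highest tissue at least 2 times the lowest for the member. The members and lists were chosen with earlier results of these data known.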

Additional observations from a re-analysis of the deposited data

How the results depend on the processing

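Against the values given, 490 of 534 alternative values of the 9 members and 1011 of 1069 of the other retinoid genes kept their direction and side of the threshold. All calls of members for thymus against bone and for bone against skin held in all 20 alternatives. The number of members past the threshold for thymus against skin, 7, became 3 with library size only, 4 with limma on log2 of RPKM plus 0.1 and 3 with limma on RPKM plus 1 and no filter. For bone against skin, 4 became 7 with library size only and with all 3 limma fits. RPKM and library size carry no TMM factor, which shifts all genes against skin; limma on RPKM plus 1 called 6482 genes higher and 1173 lower for thymus against skin, and 6218 and 1534 for bone against skin. Leaving out 1 library gave 6 to 6 members for thymus against bone, 6 to 7 for thymus against skin and 4 to 5 for bone against skin. The replicate numbers do not pair samples by the labels, and same-numbered libraries of different tissues deviated together at r of -0.033 to 0.076. The fit with a replicate block called 6, 7 and 5 members in the 3 comparisons, and 3399 of all genes for thymus against bone in place of 5101; the cause was not tested. With the replicate block, the bone to skin difference of Cyp26b1 passed (adjusted p = 0.0208), and those of Rdh12 for thymus against bone (adjusted p = 0.103) and Rxrg for thymus against skin (adjusted p = 0.0517) did not. Directions that turned were those of Stra6 and of small bone to skin differences. Stra6 for thymus against skin ranged between -1.36 and 1.43 with 1 library left out, the highest without skin 3, and for bone against skin between -0.53 and 2.26. Dhrs3 for bone against skin became 0.0128 with library size only, 0.0526 with limma on RPKM plus 1, with or without the filter, and 0.062 with RPKM plus 0.1. Rarg became 0.15, 0.0171 and 0.0175, and Rxra 0.25, 0.093 and 0.0985, in the same order, and Rxrb 0.0377 with library size only. Crabp2 in thymus, under 1 CPM, rests on 117 reads, and the Stra6 mean in skin rests mostly on skin 3, with 437 of 497 reads.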
